A study of Homo sapiens with 26 samples.

Results

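U87MG cells, an established human glioblastoma line, were treated with an siRNA against EZH2 or with an siRNA against GFP as the control, and the genes described here are all those in the authors' deposited table of that comparison. The table holds 1342 rows carrying 1341 gene symbols, and each row gives a gene's hg19 position and a log2 fold change of siEZH2 over siGFP. It was made from 4 of the 26 libraries of a study of RNAs that associate with EZH2, with 2 libraries per arm. Both arms were the same line in the same medium (EMEM with fetal bovine serum), and polyadenylated RNA was sequenced after fragmentation with a small RNA library kit. The siRNA dose and the time of harvest are not given in the labels, and nothing in them says that the 2 libraries of an arm came from separate cultures.

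By its name the table was limited to an adjusted p of 0.05. It lists no gene that missed that threshold and gives no values for single libraries, no errors, no p-values and no expression levels. Depth per library is therefore unknown, no spread between replicates could be computed, and the marker genes that define the line could not be checked by their levels. The direction, siEZH2 over siGFP, was read from the order of names in the table. No row carries the symbol EZH2 or overlaps that gene, so the knockdown could not be checked either. For replicate 2 of the siEZH2 arm the treatment field reads EZH3, in conflict with the sample's title (EZH2), which was taken as correct. Every fold change below is a log2 fold change from the authors' deposited table, without SD or n, and "rose", "higher", "fell" and "lower" mean that the authors' test listed the gene on that side of siEZH2 over siGFP. In bulk RNA a change in the number of cells of a kind and a change in RNA per cell cannot be told apart.

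EZH2 is the catalytic subunit of Polycomb repressive complex PRC2, which methylates lysine 27 of histone H3. Genes that carry this mark are held at low expression, and PRC1, a second Polycomb complex, binds the mark and adds ubiquitin to histone H2A. EZH2 is abundant in dividing cells and in many tumours, glioblastoma among them, where it has been studied as a drug target.

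The listed genes were nearly evenly split by direction, but the sizes of change were not. The authors' deposited table had 661 rows higher and 681 lower under siEZH2, so that 49.3% of rows were higher (95% Wilson interval 46.6 to 51.9, counting error over genes only). The median log2 fold change was 1.01 on the higher side (quartiles 0.77 and 1.26) and -0.74 on the lower side (quartiles -0.91 and -0.62). An absolute log2 fold change of 1 or more was reached by 346 of the higher rows (52.3%) and by 122 of the lower rows (17.9%). Above that limit the balance turned, with 73.9% of rows higher. The smallest changes listed were 0.44 for ACTG1, cytoplasmic gamma-actin, and -0.40 for EIF3A, a subunit of translation initiation factor eIF3.

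**Figure D1:**
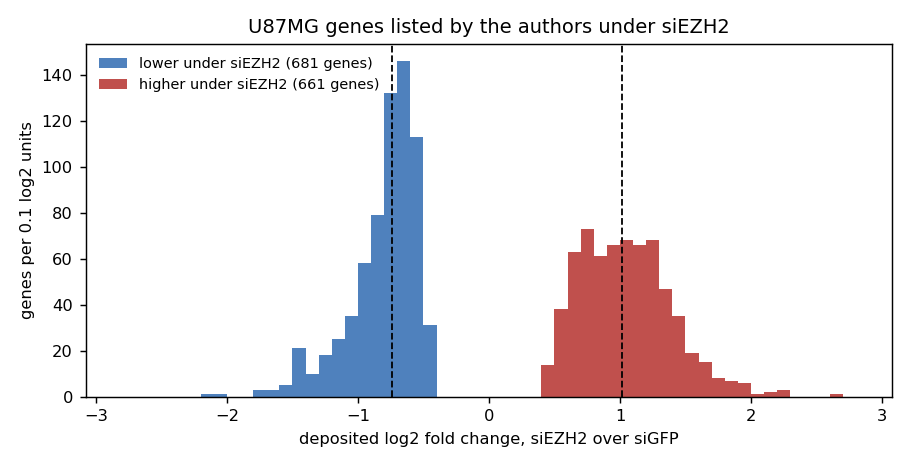
Number of listed genes per 0.1 log2 units (vertical axis) against the deposited log2 fold change of siEZH2 over siGFP (horizontal axis), with lower genes in blue, higher genes in red and a dashed line at the median of each side. The lower genes crowd near their median of -0.74, while the higher genes spread around 1.01, and no gene lies between -0.40 and 0.44.

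Of 20136 annotated protein-coding genes, 1331 (6.61%) were in the table, 656 of them higher (3.26%) and 675 lower (3.35%). These percentages are the background for the group counts below. They are loose ones, since U87MG cells do not express every annotated gene. Of 99 functional lists, 61 had at least 5 members in the table. Among these 61, 8 had at least 80% of their listed members on the higher side and 10 had at least 80% on the lower side. In all, 677 rows fell in a list (332 higher, 345 lower), and 665 fell in none (329 higher, 336 lower). A gene can belong to several lists, so the lists are not independent of each other.

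**Figure D2:**
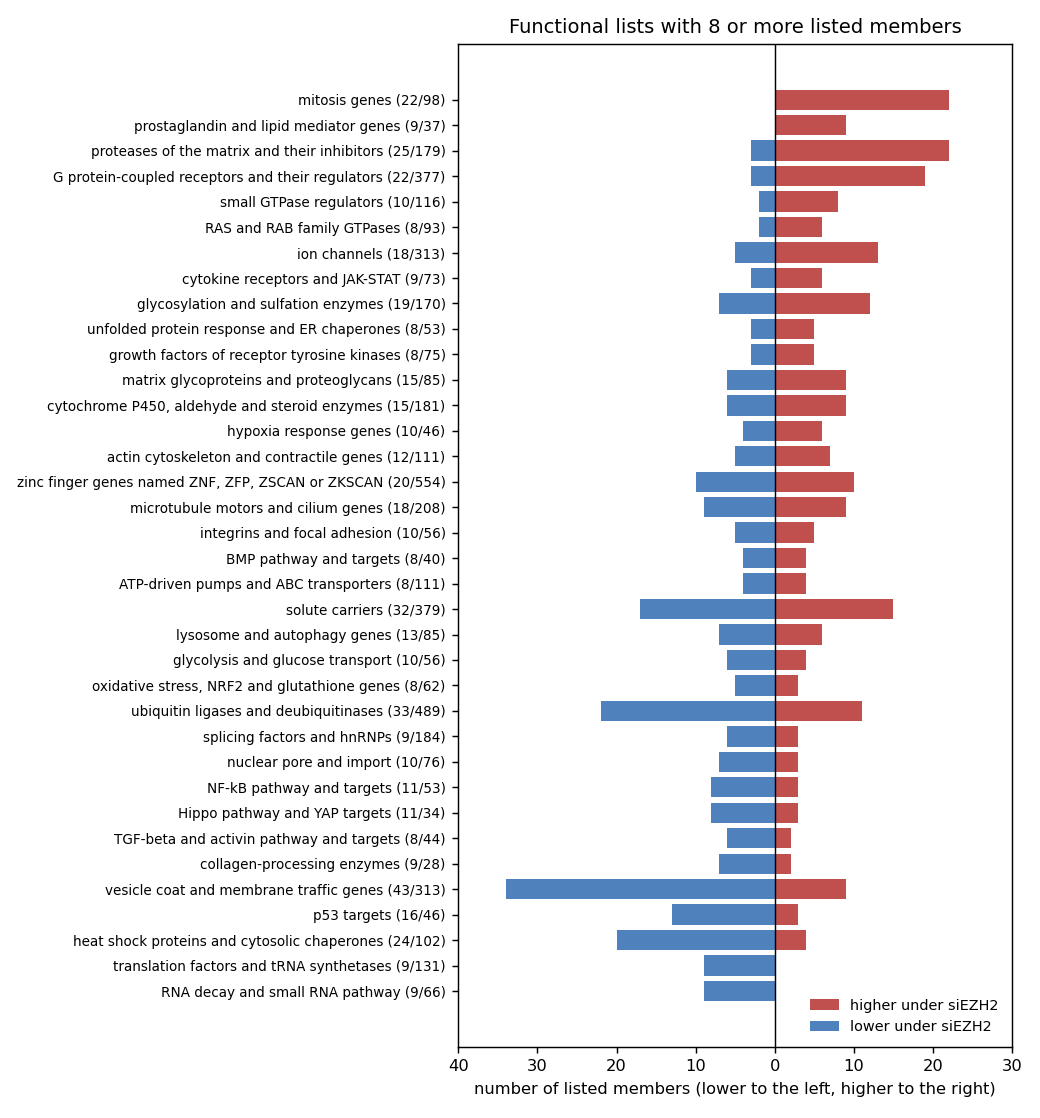
Number of members higher (red, to the right of 0) and lower (blue, to the left) under siEZH2 in each functional list with 8 or more listed members; parentheses give listed over annotated members. All listed mitosis and lipid mediator genes are higher, and all listed translation and RNA decay genes are lower.

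Genes of mitosis rose together. The authors' deposited table held 22 of 98 genes of this list (22.4%), and all 22 were higher, with a median of 1.13 and 15 of them at 1 or more. The largest changes were those of DEPDC1B (1.48), whose product controls adhesion as cells enter mitosis, KIFC1 (1.46), a kinesin that bundles spindle microtubules, AURKA (1.41; hg19 chr20:54944445-54967393), the spindle pole kinase, and KIF11 (1.34; chr10:94353043-94415150), the kinesin that pushes spindle poles apart. CCNA2, the S and G2 phase cyclin, was higher at 1.30. CKS1B, a small subunit that binds cyclin-dependent kinases, had 2 rows with the same value of 1.18, one at the gene on chromosome 1 and one of 240 bases on chromosome 5 with no annotated gene of that name there. CKS2, its relative, was at 0.74. In contrast, TFDP1, the partner of E2F factors, fell by 0.56 and the G1 cyclin CCND1 fell by 1.06. Of 58 DNA replication genes only 3 were listed: RFC3, a clamp loader subunit (0.92), and DBF4, the activator of the CDC7 kinase (0.68), were higher, and RPA2, which coats single-stranded DNA, was lower (-0.51). Near-identical gene copies that rose as well were FAM72A, FAM72B and FAM72D (1.21 to 1.42) and ARHGAP11A with ARHGAP11B (1.01 and 1.29), whose reads the counting could have split between copies.

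Promoters of many mitosis genes hold the cell cycle homology region (CHR), with the letters TTTGAA, and CCAAT boxes. Because these genes moved together, the bases before the start site are shown for the 3 with the largest change whose CHR lies wholly upstream of the start. Each run ends at the base before the RefSeq start (GRCh38.p14) and reads 5′ to 3′ on the gene's strand, and capitals mark the CHR, which in KIF11 and GTSE1 is on the opposite strand.
KIF11, chr10:92593010-92593129, plus strand: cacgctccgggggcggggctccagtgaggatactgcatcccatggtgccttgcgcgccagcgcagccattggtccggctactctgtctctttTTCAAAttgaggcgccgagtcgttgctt
CDCA8, chr1:37692396-37692515, plus strand: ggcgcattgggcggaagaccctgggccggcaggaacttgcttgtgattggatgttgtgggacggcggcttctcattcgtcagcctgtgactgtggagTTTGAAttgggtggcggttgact
GTSE1, chr22:46296750-46296869, plus strand: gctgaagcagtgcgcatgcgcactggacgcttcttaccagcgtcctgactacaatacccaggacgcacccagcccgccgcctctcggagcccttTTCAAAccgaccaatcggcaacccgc
KIF11, CDCA8 (1.17, a subunit of the chromosomal passenger complex) and GTSE1 (1.01, a microtubule-binding protein) carry CHR letters that begin 28, 23 and 26 bases before the start. A promoter of 300 bases (250 before to 50 after the start) was given for 18 of the 22 genes, and 11 of them (61.1%) held the CHR on either strand. The same letters were in 12.1% of 15318 protein-coding promoters, and in 38 of 63 mitosis genes that were not listed (60.3%). CCAAT was in 15 of the 18 (83.3%), in 66.7% of the unlisted members and in 36.6% of all promoters. Over the whole table the CHR was in 15.5% of 530 higher and 7.76% of 541 lower genes with a given promoter. The promoters of listed mitosis genes thus held the CHR at nearly the same share as those of unlisted ones. A match is a description of these letters and not a measured binding site.

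Receptors that signal through G proteins, with their regulators, were mostly on the higher side. The authors' deposited table held 22 of 377 genes of this list (5.84%, near the background of 6.61%), but 19 of the 22 were higher. Among them were MC5R, a melanocortin receptor (2.29), AGTR1, the angiotensin II receptor (2.11; hg19 chr3:148415571-148460795), CCR1, a chemokine receptor (1.92), and FPR1, the receptor for formylated bacterial peptides (1.67). XCR1, another chemokine receptor, was at 1.94 and was the 11th largest of the higher side, but it is not counted in this list. The 3 lower members were GPR173, an orphan receptor (-0.92), and the G protein alpha subunits GNAI2 (-0.57) and GNA12 (-0.54). All 16 members at 1 or more were higher.

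Genes that make, sense or release lipid mediators gave 9 of 37 listed (24.3%), all 9 higher with a median of 1.11. They included ENPP2, or autotaxin, which makes lysophosphatidic acid (1.37), PTGFR, the prostaglandin F receptor (1.36), PTGS1, the constitutive cyclooxygenase (1.32), and S1PR1, a receptor for sphingosine 1-phosphate (1.25). PTGFR and S1PR1 are also counted among the G protein-coupled receptors. AKR1C1 (0.90) and AKR1C2 (1.00), which reduce steroids and prostaglandins, are near-identical copies, and their values are uncertain as separate genes.

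Small GTPases and their regulators followed. Of 116 regulators of one branch of these GTPases 10 were in the authors' deposited table (8.62%), and 8 of these were higher. ARHGAP28 (1.65), ARHGAP36 (1.61) and ARHGAP11A (1.29) carry domains of GTPase-activating proteins, and RND2 (1.49) is an atypical small GTPase. DOCK3, an exchange factor for RAC (-0.91), and ARHGAP1 (-0.70) were lower. Of 93 RAS and RAB family genes 8 were listed (8.6%, near the background), 6 of them higher, led by DIRAS3, an imprinted growth-inhibitory GTPase (2.67), RAB15 (1.21) and RAB20 (1.01), followed by RAP2B (0.88), RAB7L1 (0.76) and RAB32 (0.72). RRAD, a RAS relative that inhibits calcium channels, was lower (-1.22), as was RAB18 (-0.58).

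Proteases and their inhibitors in the matrix and lysosome were also on the higher side. Of 179 genes 25 were in the authors' deposited table (14%), and 22 of these were higher, with a median over the 25 of 1.10. The cysteine cathepsins led: CTSK, known from bone resorption, was at 1.84 (hg19 chr1:150768684-150780799), CTSH at 1.47 and CTSL at 1.41. SERPINB3, an inhibitor of such cathepsins, was at 1.62. SERPINB3 and its near-identical neighbour SERPINB4 (1.04) cannot be cleanly separated by reads. The 3 lower members were ADAM12 (-1.50) and ADAM9 (-0.47), both membrane-bound metalloproteases, and CTSF (-0.83). The list therefore held both enzymes and inhibitors that rose, and their activity was not measured.

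Antigen presentation genes numbered 7 of 38 (18.4%), with 6 higher. HLA-DPA1 (1.49), HLA-DQA1 (1.45) and HLA-DRA (1.19) encode alpha chains of MHC class II, and CD74 (0.52) encodes the invariant chain that escorts class II. CD274, the checkpoint ligand PD-L1, was at 0.77 in the authors' deposited table. Of the stress ligands that natural killer cells read through NKG2D, ULBP1 was higher (0.70) and MICB lower (-1.45). Complement and coagulation genes were listed at 5 of 59 (8.47%, near the background), 4 of them higher: SERPING1, the inhibitor of complement C1 (1.27), F3, or tissue factor (1.20), PROCR, the protein C receptor (0.71), and CD55, which limits complement on cells (0.57). C4B was lower (-1.29), and it has a near-identical copy with which it can share reads. The interferon-stimulated list gave 5 of 76 (6.58%), with EPSTI1 (1.24), HERC5 (0.95) and IFI44L (0.83) higher and IRF1 (-0.85) and LGALS3BP (-0.55) lower.

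Ion channels were listed at 18 of 313 (5.75%), with 13 higher. CACNA1E, a voltage-gated calcium channel, was at 1.54, and the GABA-A receptor subunits GABRA4 (1.32), GABRG3 (1.30) and GABRQ (1.30) followed in the authors' deposited table. Another subunit, GABRA3 (1.05), is named because it belongs to the same receptor family and was picked after its value was seen. The lower channels with the largest changes were GRIK2, a kainate-type glutamate receptor (-1.40), HCN2, a pacemaker channel (-1.15), KCND2, a potassium channel (-1.0), and PIEZO1, a channel opened by stretch (-0.77).

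Several factors of lineage choice were higher, and others were lower. Of 50 basic helix-loop-helix differentiation genes 5 were listed, with 4 higher, among them ID4 (1.31) and ID2 (0.82), which block such factors, and TWIST1, a mesodermal factor (1.03). ATOH8 was lower (-1.71). Of 80 FOX, SOX, GATA, TBX and PAX genes 3 were listed (3.75%, below the background of 6.61%), and all were higher. These were EOMES, a T-box factor of early development (1.87), SOX4 (1.14) and FOXN2 (0.77). Of the regulators of the epithelial-mesenchymal transition, SNAI2 (1.34), TWIST1 and ZEB1 (0.64) were higher, whereas SNAI1 (-1.15), PRRX1 (-0.62) and SPARC (-0.45) were lower. Of 111 other homeobox genes 4 were listed (3.6%, below the background), 2 higher and 2 lower. ALX1 (0.86) was among the higher ones and CUX1 (-0.61) among the lower ones. HOX genes, classical PRC2 targets, had 0 of 39 members in the authors' deposited table, and the Hedgehog pathway had 0 of 20. At a background of 6.61%, lists this short would hold few listed genes, and whether these genes were expressed is unknown.

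Other genes of the top 30 on the higher side came from many families. KRT15, a basal keratin (2.08), PADI3, which converts arginine to citrulline in hair and skin (1.97), and LTF, the iron-binding protein lactoferrin (1.94), belong to epithelial or secreted products. CXCL13, a B cell chemokine (1.96), ANGPT2, an antagonist of the TIE2 receptor (1.85), and DLL1, a Notch ligand (1.74), are signals between cells. VSNL1, a neuronal calcium sensor (1.89), and SYT1, the calcium sensor of synaptic vesicles (1.86), are best known from neurons. ITGA6, the laminin-binding integrin subunit studied as a marker of glioma stem cells, was at 1.75 in the authors' deposited table. PHEX, a phosphate-regulating endopeptidase (1.87), ENPP1, which makes pyrophosphate (1.75), and HS3ST2, a heparan sulfate sulfotransferase (1.78), were also in the top 30. So was ATL1, a GTPase that fuses endoplasmic reticulum tubules (1.76). The span of ATL1 overlaps that of MAP4K5 (-0.60) on the opposite strand over 28618 bases, introns included. Reads were aligned as unstranded, and how the counting treated reads from the shared part could not be checked.

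On the lower side, targets of the tumour suppressor p53 were frequent; U87MG is known to carry the gene in its wild-type form. Of 46 such genes 16 were in the authors' deposited table (34.8%, against 6.61% of all protein-coding genes), 13 lower and 3 higher. CDKN1A, the cyclin-dependent kinase inhibitor p21, was the 7th largest decrease of the table (-1.68; hg19 chr6:36644305-36655116). RRM2B, the p53-induced ribonucleotide reductase subunit (-1.43), PLK3, a stress-responsive kinase (-1.14), and BTG2, an antiproliferative factor (-1.11), followed. The 3 higher members were PERP, a desmosome protein (1.32), TNFAIP8 (0.86) and PLK2 (0.59). At an absolute value of 1 or more, 6 members were lower and 1 higher. DNA repair genes were listed at 7 of 85 (8.24%), 6 of them lower: REV3L, the catalytic subunit of a translesion polymerase (-0.998), XPC (-0.97), DDB1 (-0.70) and DDB2 (-0.56), which recognise damaged bases, RECQL, a helicase (-0.69), and PRKDC, the DNA-dependent protein kinase (-0.57). BLM, the Bloom syndrome helicase, was higher (1.15), and it was the only member whose unrounded absolute value reached 1. XPC and DDB2 are in both lists.

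Inflammatory signals of the NF-kB pathway fell as well, though not all of them. The authors' deposited table held 11 of 53 genes (20.8%), with 8 lower and 3 higher. CSF3, the granulocyte growth factor, was at -2.03, IL8, the neutrophil chemokine, at -1.58, CSF2, the granulocyte and macrophage growth factor, at -1.23, and TNFAIP2 at -1.05. BCL2A1, a survival factor (1.13), TNFAIP6, a hyaluronan-binding protein (0.91), and TNFAIP8 (0.86) were the higher members. Chemokines were divided: CCL2 (-0.91) and CCL3 (-0.85) fell with IL8, while CXCL13 (1.96) and CXCL12 (1.23) rose. IL1RN, the antagonist of the interleukin 1 receptor, was higher at 1.20. Cytokine receptor and JAK-STAT genes gave 9 of 73 (12.3%), 6 higher, led by CSF1R (1.40) and the prolactin receptor PRLR (1.05). The lower ones were the receptor IL7R (-0.74) and the JAK-STAT genes SOCS4 (-0.54) and JAK1 (-0.49).

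Growth factor genes moved in both directions with large values. In the authors' deposited table TGFA, a ligand of the EGF receptor (-1.65), PDGFA (-1.45) and FGF2 (-1.43) fell. PROK2, a prokineticin with G protein-coupled receptors (2.21), ANGPT2 (1.85), EFNB2, a membrane ephrin (1.31), FGF7 (0.93) and PTN (0.86) rose. SPRY4, a feedback inhibitor of growth factor signalling, fell by 1.36, and the phosphatase genes DUSP5 (1.10) and DUSP16 (0.77) rose together with PHLDA1 (0.49). In the PI3K and mTOR list, DEPTOR, an mTOR inhibitor (-2.16), INPP5D, a lipid phosphatase (-1.22), MTOR itself (-0.90) and PHLPP2 (-0.72) were lower. DDIT4L (1.09) and RRAGA (0.47) were among the 3 higher members. Kruppel-like and immediate early genes were listed at 6 of 49 (12.2%), 5 of them lower: KLF10 (-1.16), BTG2, NR4A2 (-1.01), ZFP36 (-0.83) and IER5 (-0.75).

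Chaperones were a second broad lower group. Of 102 heat shock proteins and cytosolic chaperones 24 were in the authors' deposited table (23.5%), 20 lower and 4 higher. The 20 lower members had a median of -0.62, smaller in size than the -0.74 of all lower rows. HSPB6, a small heat shock protein (-1.41; hg19 chr19:36245469-36248980), DNAJB2 (-1.08) and DNAJC5 (-1.05), both partners of HSP70, and HSPA4L (-1.02), an HSP70 exchange factor, had the largest changes, and these 4 were the only ones at 1 or more. HSPB1 was at -0.59. The higher members were DNAJC18 (0.90), DNAJC27 (0.77), FKBP7 (0.71) and HSPA13 (0.50). HSPA1A and HSPA1B are near-identical copies (both at -0.59), and only HSPA1A was counted in the list. Of 53 genes of the unfolded protein response and endoplasmic reticulum chaperones 8 were listed (15.1%), 5 of them higher: ATF6 (1.11), ERO1LB (1.04), HSP90B1 and SPCS2 (both 0.72) and CANX (0.52). P4HB (-0.68) and the coat proteins SEC23B (-0.75) and SEC31A (-0.66) were lower.

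Heat shock factors bind repeats of the unit GAA in alternating orientation, written here as GAANNTTC. Upstream sequence is shown for the 3 listed members with the largest change that hold this motif before the start, by the same rules as above. Capitals mark the motif.
HSPB6, chr19:35757030-35757245, minus strand: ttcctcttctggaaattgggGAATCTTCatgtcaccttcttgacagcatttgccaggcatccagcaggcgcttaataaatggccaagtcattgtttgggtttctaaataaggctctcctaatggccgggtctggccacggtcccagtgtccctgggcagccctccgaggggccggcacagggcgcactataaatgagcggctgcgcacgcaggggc
CHORDC1, chr11:90223050-90223274, minus strand: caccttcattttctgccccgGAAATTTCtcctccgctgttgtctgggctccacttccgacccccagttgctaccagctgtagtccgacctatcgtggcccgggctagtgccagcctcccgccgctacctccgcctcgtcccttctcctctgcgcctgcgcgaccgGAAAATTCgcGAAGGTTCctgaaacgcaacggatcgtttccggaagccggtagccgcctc
TCP1, chr6:159789603-159789852, minus strand: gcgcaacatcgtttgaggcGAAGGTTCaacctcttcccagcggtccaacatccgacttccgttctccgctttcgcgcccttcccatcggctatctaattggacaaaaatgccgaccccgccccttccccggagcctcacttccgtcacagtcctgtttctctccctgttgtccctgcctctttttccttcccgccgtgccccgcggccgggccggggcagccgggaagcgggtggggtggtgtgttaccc
HSPB6 and TCP1, a subunit of the TRiC chaperonin (-0.64), each hold 1 match, whereas CHORDC1, an HSP90-binding protein (-0.65), holds 3. TCP1 overlaps ACAT2 (0.78) on the opposite strand over 615 bases. The motif was in 8 of the 22 listed members with a given promoter (36.4%), in 6 of 67 chaperone genes that were not listed (8.96%) and in 5.56% of all promoters. It was in 6.65% of lower and 4.72% of higher genes of the whole table. Here the listed members held the motif at a greater share than unlisted ones, in contrast to the CHR of mitosis genes, and this difference was not tested.

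Genes of RNA decay, translation and ribosome biogenesis that were listed were all lower, and most genes of these lists were not in the table. In the authors' deposited table all 9 listed of 66 genes of RNA decay and the small RNA pathway (13.6%) fell, with a median of -0.80. CNOT6, a deadenylase of the CCR4-NOT complex, fell most (-1.69; hg19 chr5:179921412-180005405), followed by DICER1 and AGO2 (both -0.93), which make and carry small RNAs, and ZFP36 (-0.83), which marks AU-rich messages for decay. All 9 listed of 131 translation factors and tRNA synthetases fell (6.87%, near the background), with a median of -0.59, led by EIF6 (-0.80), EIF2B3 and the valine tRNA synthetase VARS (both -0.72) and EIF1B (-0.71). Of the ribosome biogenesis genes 7 of 85 were listed (8.24%) and all fell: WDR36 (-0.97), URB1 (-0.86), RRP1B (-0.76), NOL6 (-0.70), the RNA polymerase I subunit POLR1A (-0.68), DCAF13 (-0.57) and NOLC1 (-0.53). RPS27L (-0.58) was the only ribosomal protein gene listed of 88, and 0 of 116 mitochondrial ribosome and import genes were.

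RNA helicases were listed at 7 of 67 (10.4%), 6 of them lower, among them ASCC3 (-0.97), DICER1, DDX5 (-0.72), DDX6 (-0.69) and DDX1 (-0.50), and DHX40 was higher (1.01). Genes of RNA polymerase II, Mediator and elongation were listed at 7 of 143 (4.9%, below the background of 6.61%), 6 of them lower, with TAF13 (-0.92), ELL (-0.90) and CCNT1 (-0.83) at the top, then INTS1 (-0.68), SUPT7L (-0.54) and GTF2I (-0.51). ELL2 was higher (0.75). Splicing factors gave 9 of 184 (4.89%) in the authors' deposited table, 6 lower and 3 higher. The higher ones, MBNL3 (1.28), KHDRBS3 (1.17) and SRRM3 (1.15), had larger changes than the lower ones, led by NOVA1 (-0.83) and MBNL2 (-0.82).

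Membrane traffic was the largest lower group by count. Of 313 genes of vesicle coats, tethers and fusion 43 were in the authors' deposited table (13.7%), 34 lower and 9 higher, with a median of -0.66. EHD1, which recycles endosomes (-1.24), SEC24A, a COPII coat subunit (-1.04), ARF4, a Golgi GTPase (-0.96), and SNX29 (-0.91) had the largest decreases. Few of these changes were large: of the 5 members at 1 or more, 3 were higher. SYT1 (1.86), SNX32 (1.51), SYT13 (1.09) and COPZ1 (0.93) led the higher side. The Golgi and transport genes DNM2 and TMED1 overlap on opposite strands, as do COG1 and FAM104A.

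Of 489 ubiquitin ligases and deubiquitinases 33 were listed (6.75%, at the background), 22 lower and 11 higher, but of the 9 at 1 or more 6 were higher. The lower ones were led by FBXO36 (-1.12), UBR4 (-1.05) and BIRC3 (-1.01) in the authors' deposited table, and by KCTD11 (-0.97). The higher ones were led by RNF175 (1.70), RNF2 (1.42), UBE2S (1.28), which extends chains for the anaphase-promoting complex, and UBE2T (1.23), which acts in crosslink repair. Proteasome subunits and activators were listed at 7 of 48 (14.6%), 6 of them lower: PSME4 (-0.72), PSMD3 (-0.60), PSMD12 (-0.53), PSMD8 (-0.50), PSMD6 (-0.49) and PSMC6 (-0.46). PSMC2 was higher (0.97). Nuclear pore and import genes were listed at 10 of 76 (13.2%), 7 of them lower, led by NUPL1 (-1.18) and AAAS (-1.01), and NUP210 (1.24), NDC1 (0.91) and IPO5 (0.68) were higher. RANBP2 and 5 of its RGPD copies were all listed as lower (-0.81 to -0.55), as were NOMO1, NOMO2 and NOMO3 (-0.54 to -0.52); these copies may share reads and are not separate observations.

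**Figure D3:**
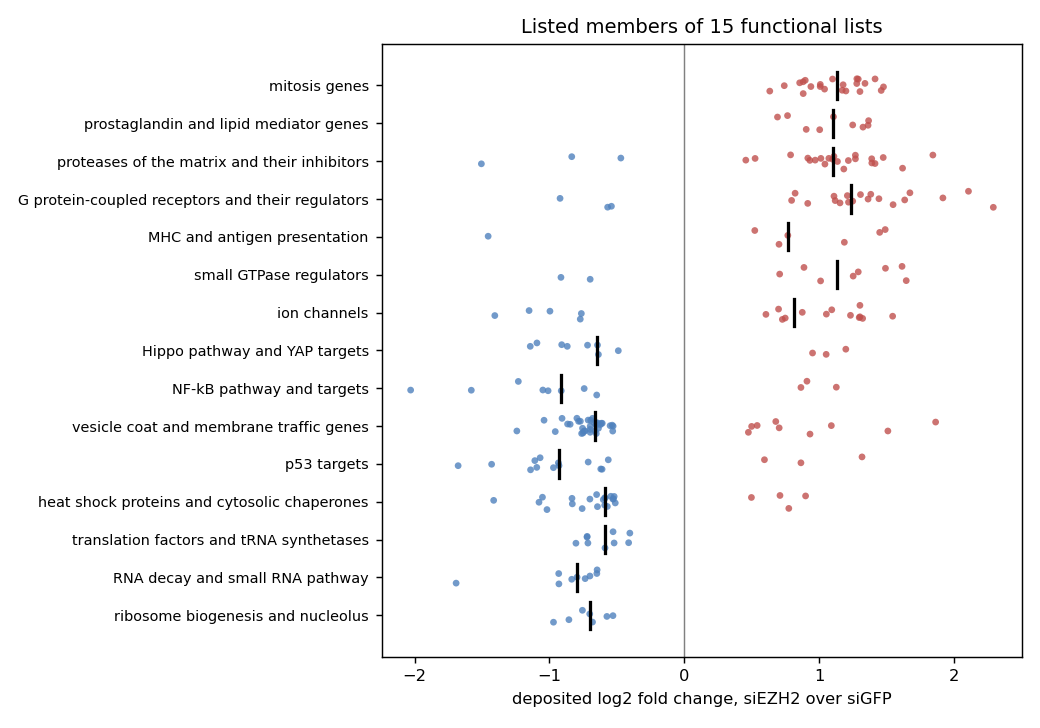
Deposited log2 fold change of siEZH2 over siGFP (horizontal axis) for every listed member of 15 functional lists, chosen after their values were seen; each point is a gene, red if higher and blue if lower, and the black bar is the median of the listed members. The mitosis points lie between 0.63 and 1.48, and the translation and ribosome biogenesis points lie between -0.97 and -0.40.

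The collagen network and its enzymes were mostly lower, while other matrix genes were divided. The authors' deposited table listed 7 of 44 collagens (15.9%), and 5 of them fell: COL5A2 (-1.42), COL5A1 (-0.85), COL27A1 (-0.82), COL6A2 (-0.70) and COL6A1 (-0.54). COL4A2 (1.22) and COL22A1 (1.18) rose, so that 2 of the 3 collagens at 1 or more were higher. Collagen-processing enzymes numbered 9 of 28 (32.1%), 7 of them lower, led by P4HB, a subunit of prolyl hydroxylase (-0.68), the crosslinking oxidases LOX (-0.66) and LOXL3 (-0.65), and BMP1, the procollagen protease (-0.58). ADAMTS14 (0.97) and CRTAP (0.63) were higher. LOX overlaps the lower gene SRFBP1 (-0.77) on the opposite strand. The basement membrane genes LAMA5 (-1.27), HSPG2 (-0.95) and AGRN (-0.73) fell. Of 85 matrix glycoproteins and proteoglycans 15 were listed (17.6%), 9 higher and 6 lower. THBS1, thrombospondin 1 (-1.54; hg19 chr15:39873280-39891667), CRIM1 (-1.44), MGP (-1.16) and CYR61 (-1.14) fell most, and SPARCL1 (1.28), NOV (1.27), VCAN (1.20) and SDC1 (1.04) rose most.

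Adhesion receptors did not share a direction. Of the 10 listed of 56 integrin and focal adhesion genes (17.9%) 5 were higher, among them ITGA6, ITGA4 (1.16), ITGAX (1.10) and LAYN (0.93). The 5 lower ones included FLNC (-1.10), ITGAV (-0.88) and TLN1 (-0.73). Of 105 cadherins and protocadherins 6 were in the authors' deposited table (5.71%, below the background of 6.61%), 4 higher and 2 lower. CDH18 (1.47), CDH7 (1.39), PCDHB2 (0.96) and CDH23 (0.83) were higher, and the giant cadherins FAT4 (-0.91) and FAT1 (-0.87) were lower. Of 88 other cell adhesion and tight junction genes 6 were listed (6.82%, near the background), 4 higher and 2 lower. Among them CLDN1, a tight junction protein, was at -1.46, and GJB2, a gap junction protein, at 1.48. NCAM1 (1.24) and NCAM2 (1.16), neural adhesion molecules, were both higher. Guidance genes were listed at 7 of 80 (8.75%, near the background), 5 of them higher, with NTN5 (1.28), SEMA4A (1.26), SEMA5A (1.24) and SEMA7A (0.98) besides EFNB2, and PLXNB2 (-1.03) and RGMB (-0.85) were lower.

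Targets and members of the Hippo pathway gave 11 of 34 in the authors' deposited table (32.4%), 8 lower and 3 higher. CYR61, a YAP target (-1.14), AMOTL2 (-1.09), FAT4 and FAT1 led the lower side. F3 (1.20), TEAD2 (1.05) and SAV1 (0.95) were higher. In the TGF-beta list 8 of 44 were listed (18.2%) and 6 fell: THBS1, the receptor TGFBR2 (-1.10), the decoy receptor BAMBI (-1.03), FSTL1 (-0.89), TGFBI (-0.77) and GDF15 (-0.61). ACVR1 (0.74) and LTBP1 (0.62) rose. Of 40 BMP genes 8 were listed (20%), 4 higher and 4 lower. ID4, CHRDL1 (1.24), BMPR1B (0.99) and ID2 were higher, and ATOH8, GREM1 (-1.30), RGMB and BMP1 were lower. Of 83 WNT genes only 4 were listed (4.82%, below the background of 6.61%). The secreted inhibitors SFRP2 (1.45) and DKK3 (1.16) rose, while DKK1 (-1.38) and the co-receptor LRP6 (-0.63) fell. Of 35 Notch genes 5 were listed (14.3%). DLL1 (1.74) and ADAM10 (0.79) rose, and NOTCH1 (-1.02) and NUMB (-0.58) were among the 3 that fell.

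Sterol and sugar metabolism changed modestly. Of 35 genes of sterol synthesis and uptake 7 were in the authors' deposited table, 5 lower and 2 higher. HMGCS1 (-0.78), IDI1 (-0.67) and SQLE (-0.66), enzymes of sterol synthesis, were among the lower ones, and ACAT2 (0.78), which joins acetyl groups, was among the higher ones. At an absolute value of 1 or more the only member was higher. The desaturase SCD (-1.25), the elongase ELOVL6 (-0.82) and ACLY (-0.68) fell, and AGPAT4 (0.70) rose. Promoters were given for 2 of the 7 sterol genes, and neither held the letters TCACNCCAC of a sterol element, which were in 1.18% of all promoters. Of the glycolysis and glucose list 10 of 56 were listed (17.9%), with 6 lower, among them PDK4 (-0.99), PGAM1 (-0.78) and TALDO1 (-0.69), and 4 higher, among them SLC2A12 (1.13), LDHB (0.88) and HK1 (0.67). PGAM1 has a near-identical copy, PGAM4 (-0.75). Of 46 hypoxia response genes 10 were listed (21.7%), 6 higher and 4 lower. MXI1 (1.36) and RAB20 led the higher ones, whose median of 0.61 was below the 1.01 of all higher rows. HIF1A (-0.70) and EPAS1 (-0.82), the alpha subunits of the hypoxia factors, were among the 4 lower ones.

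The PRC2 and PRC1 lists are short, and their shares in the authors' deposited table were near the background of 6.61%. Of 13 PRC2 genes only PHF19, an accessory subunit, was listed (7.69%), at 1.24. Of 22 PRC1 genes only 2 were (9.09%): RNF2, the ubiquitin ligase subunit (1.42), and CBX6 (-0.87). BCOR (-0.90), a subunit of a variant PRC1 complex, and ASXL2 (-0.66), of the Polycomb deubiquitinase, were listed as lower but are in neither list; they are named after their values were seen. Other chromatin lists had shares around the background, and most of their listed members were lower. Histone methyltransferases were listed at 3 of 31 (9.68%), demethylases at 1 of 23 (4.35%) and acetyltransferases and deacetylases at 1 of 30 (3.33%). Remodellers were listed at 3 of 43 (6.98%) and DNA methylation genes at 1 of 16 (6.25%). The histone methyltransferase genes SETD1B (-1.03) and SETD7 (-0.79), the demethylase gene KDM4B (-0.76), the deacetylase gene HDAC7 (-0.93), the DNA glycosylase gene TDG (-0.88) and the remodeller genes BAZ1B (-0.75), CHD1 (-0.59) and ARID2 (-0.57) fell. SMYD3, a lysine methyltransferase, rose (0.81). Of 47 imprinted genes 3 were listed (6.38%, near the background), and all rose: DIRAS3, PEG10 (1.48) and GRB10 (0.71). Genes named as zinc fingers, most of them sequence-specific DNA-binding proteins, gave 20 of 554 (3.61%), 10 on each side.

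Lists of cell type markers described which such genes were listed, as the table holds no levels. Neuron and synapse genes were listed at 6 of 77 (7.79%, near the background of 6.61%). SYT1, CAMK2A (1.51), SCG2 (1.00) and GRIA3 (0.73) were higher, and MAP2 (-0.68) and UCHL1 (-0.50) were lower. Of 18 astrocyte markers 3 were listed (16.7%), and GLUL (1.09), BMPR1B and GJA1 (0.45) rose. Of 24 proneural and oligodendrocyte markers 3 were listed (12.5%), all higher, NCAM1 and UGT8 (0.96) among them. The 4 listed of 30 mesenchymal glioma markers (13.3%) all fell: THBS1, COL5A1, TGFBI and LOX. Each of these marker lists rests on a few genes, and a shift of cell state was not tested. CSF1R and ITGAX were the 2 listed leukocyte markers of 28, both higher. No gene of the endothelial and pericyte list (0 of 21) or of the epithelial marker list (0 of 27) was in the authors' deposited table, and whether any was expressed is unknown. The epithelial list does not hold every gene known from epithelia: CLDN1 fell, and of 71 keratins and other intermediate filament genes 3 were listed (4.23%, below the background), all higher, namely KRT15 (2.08), KRT75 (1.20) and KRT79 (1.03).

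The 2 sides differed in properties that the deposited call did not use. Exonic length, counted over all annotated exons of a gene, had a median of 5572 bases in the 656 higher and 6555 bases in the 675 lower protein-coding genes, against 4388 in all annotated ones. The median exonic GC content was 45.1% in higher and 47.6% in lower genes, against 48.6% in all. A CpG-rich promoter, defined by a GC content of at least 50% and a CpG ratio of at least 0.6 in the 1000 bases around the start, was found in 64.3% of higher genes (95% Wilson interval 60.6 to 67.9) and 76.7% of lower genes (73.4 to 79.8), against 57.6% of all. Among the quartile of genes with the highest GC content (53.7% to 72.8%), 35.1% were higher (30.2 to 40.4), whereas the other quartiles had 49.8%, 58.0% and 54.2% higher in rising order of GC. Among the longest quartile 38.4% were higher (33.4 to 43.8), and among the shortest 60.1% (54.7 to 65.2). Whether GC content or length played a part in the calls was not tested.

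**Figure D4:**
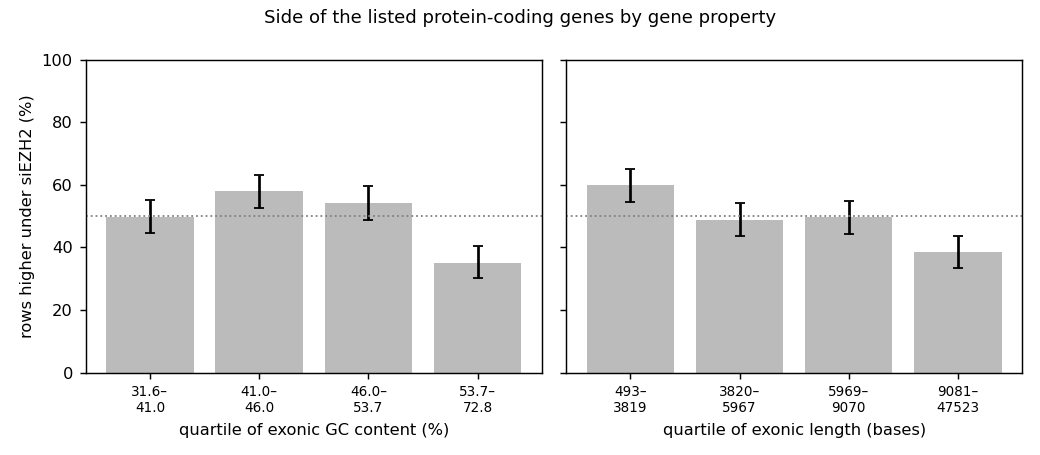
Share of listed protein-coding genes that were higher under siEZH2 (vertical axis, percent) in each quartile of exonic GC content (left) and of exonic length in bases (right); error bars are 95% Wilson intervals and the dotted line marks 50%. The last bar is lowest in both panels, at 35.1% and 38.4%.

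Direction also varied by chromosome in the authors' deposited table. Fewer rows were higher on chromosomes 17 (28.8% of 73), 19 (29.0% of 69), 20 (30.0% of 30) and 22 (27.6% of 29), and more were on chromosomes 18 (78.3% of 23), X (67.3% of 49), 6 (63.8% of 69) and 12 (60.8% of 74). The median exonic GC content of annotated genes was 54.8%, 57.8%, 52.3% and 56.4% on chromosomes 17, 19, 20 and 22, and 43.6%, 47.3%, 46.2% and 47.0% on chromosomes 18, X, 6 and 12. These chromosomes were picked for their direction, and the relation was not general: chromosome 4, with a lower GC content (42.1%) than any of them, had 51.6% of its rows higher. The part of GC content in the direction was not tested.

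**Figure D5:**
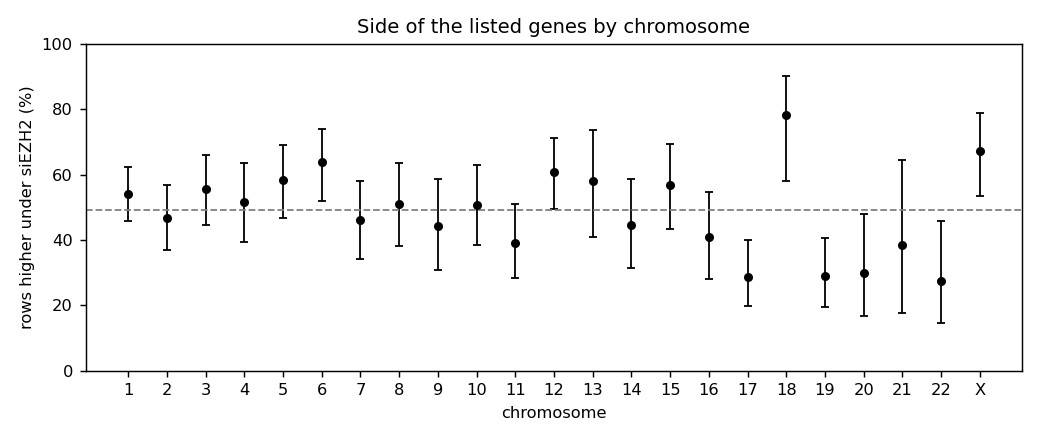
Share of rows higher under siEZH2 (vertical axis, percent) on each chromosome (horizontal axis) with 95% Wilson intervals; the dashed line is the share over all rows, 49.3%. Chromosomes 17, 19, 20 and 22 lie below the line and chromosomes 6, 12, 18 and X above it, with intervals that do not reach it.

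Neighbouring protein-coding genes were both listed in 127 cases, and in 79 of these both changed in the same direction. There were 11 runs of 3 neighbours, of which 4 went 1 way in the authors' deposited table: RNF11 (0.61), TTC39A (1.24) and EPS15 (0.69), PIGK (0.77), AK5 (1.32) and ZZZ3 (0.79), and SERPINI1 (1.07), GOLIM4 (0.78) and MECOM (0.84) were higher, and API5 (-0.69), TTC17 (-0.50) and HSD17B12 (-0.68) were lower. The other 7 runs were mixed, such as DICER1 (-0.93) beside CLMN (1.18) and SYNE3 (1.07). Listed rows overlapped on opposite strands in 17 pairs, 11 of them with both genes on the same side. Overlaps were taken over whole gene spans, introns included. Reads were aligned as unstranded, so reads in shared exons may not be assigned to a single gene. Of the 926 gene symbols in the authors' list of full-length EZH2 targets in T98G, another glioblastoma line, 111 were in the siRNA table (12% of that list and 8.27% of the table), 17 higher and 94 lower. Of 596 symbols with EZH2-associated small RNA exons in U87MG, 70 were listed (11.7% of that list and 5.22% of the table), 17 higher and 53 lower. In these 2 overlaps 15.3% and 24.3% of genes were higher, against 49.3% of all rows. Of all annotated protein-coding genes 6.61% were listed, which is the loose background described above. Among the longest quartile of listed protein-coding genes 38.4% were higher. Whether expression level or gene length played a part in these overlaps was not tested.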

How the data were processed

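Polyadenylated RNA of U87MG cells under siEZH2 or siGFP was sequenced in 2 libraries per arm. Adapters were removed by the authors with cutadapt, per the labels. The authors aligned reads to hg19 with Tophat 2 v2.0.11 as unstranded, counted reads per gene with featureCounts and called genes with DESeq2, per the labels; CASAVA 1.8 is named in the submitters' processing notes. The values are the authors' deposited log2 fold changes, which were used as they stand and only to describe.

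Rows were joined to GENCODE release 44 mapped to GRCh37, the assembly behind hg19: 1271 by symbol, 64 by an older symbol at the same place, and 7 with no match. Gene properties came from that annotation and genome, with promoter windows of 500 bases on each side of the start. Promoter sequences are RefSeq's (GRCh38.p14). Motifs were searched on both strands. Counts, medians and 95% Wilson intervals were computed with Python 3, pandas and statsmodels; the functions were tested on simulated data. No test was run, since every row had already passed the authors' threshold and no independent measure was at hand.

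The members and the 99 lists, written from general knowledge, were chosen with earlier results of these data known. Most genes named were drawn from the top 30 of each side, which are not all named, and from the members of each list. For a list, up to 4 members per side were eligible (all where 8 or fewer were listed). Neighbours in runs of 3 and CKS1B were also eligible. Near-identical copies, overlapping genes and the motif examples were chosen after symbols had been seen. Some genes and results are not reported here. The other 22 libraries of the series were not analysed here beyond the 2 target lists named.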

Additional observations from a re-analysis of the deposited data

How the results depend on the processing

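No paired analysis was possible because the table holds no values for single libraries, although the labels number the libraries of both arms 1 and 2; for the same reason no library could be left out and the spread between replicates is unknown. The share of higher rows stayed between 49.2% and 49.7% with 1 row per symbol, protein-coding genes only, or without overlapping opposite-strand rows, and turned to 73.9% at an absolute log2 fold change of at least 1. Rows in a list numbered 675 with exact symbols, 248 at that limit, and 343 among rows at or past their own side's median size, the last chosen after seeing the data. Of 61 lists with 5 or more listed members, all kept their share of higher members within its 95% Wilson interval with exact symbols. At the limit of 1, 56 of these lists had a member left; 30 stayed within the interval, 14 moved out of it without turning over, and 12 turned over to the other majority. In these 12 few genes were left, and 73.9% of all rows at that limit were higher. The share of higher members became 100% of 1 gene each (DNA repair, cholesterol, helicases) or of 3 each (lysosome, splicing). It became 88.9% of 9 (solute carriers), 66.7% of 3 each (chemokines, collagens, glycolysis) and 66.7% of 9 (ubiquitin). Membrane traffic came to 60.0% of 5 and RAS-MAPK feedback to 33.3% of 3. Past the side's median, 59 lists had a member left, of which 46 stayed, 8 moved and 5 turned over. These 5 came to 33.3% of 3 genes each (RAS-MAPK feedback, hypoxia), 44.4% of 9 (matrix glycoproteins), 0% of 1 (ATF4 targets) and 60.0% of 5 (splicing). The smaller number of genes past the limit is part of each alternative's construction, and the higher side holds most genes past 1. The ratio of median exonic length, higher over lower, went from 0.85 to 0.996 at that limit, and that of genomic span from 1.21 to 1.74; GC content (0.947 and 0.924) and promoter CpG ratio (0.922 and 0.907) changed little.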

Other observations

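Genes of other functions that have not been described filled both sides of the authors' deposited table. Glycosylation and sulfation enzymes were listed at 19 of 170 (11.2%), 12 higher and 7 lower, with HS3ST2 (1.78), ST6GAL1 (1.25), CHSY1 (1.18) and GALNTL6 (1.15) at the top and DPM2 (-1.16), ALG10B (-1.11), B3GNT5 (-1.07) and OGT (-0.83) at the bottom. Solute carriers were listed at 32 of 379 (8.44%), 15 higher and 17 lower. The metal transporter SLC11A1 (1.63), the aromatic amino acid transporter SLC16A10 (1.57), the urea transporter SLC14A1 (1.45) and the bicarbonate transporter SLC4A8 (1.31) rose most, and the amino acid transporters SLC43A2 (-1.41) and SLC7A6 (-0.99), the bicarbonate transporter SLC4A7 (-0.96) and the mitochondrial carrier SLC25A4 (-0.95) fell most. Enzymes of steroid, retinoid and drug metabolism gave 15 of 181 (8.29%), 9 higher, with CYP2J2 (1.62), HSD17B6 (1.49), CRABP2 (1.23) and HSD11B1 (1.16) at the top and CYP4F11 (-1.33) at the bottom. Microtubule motor and cilium genes were listed at 18 of 208 (8.65%) and were even, at 9 higher and 9 lower. DYNC1H1, the dynein heavy chain (-0.98), WDR34 (-0.88) and ALMS1 (-0.85) led the lower side of that list, whose higher side was led by the spindle kinesins KIFC1, KIF11 and KIF20B (1.28).

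Survival genes of the BCL2 and caspase list, listed at 7 of 50 (14%), were divided. BCL2L1 (-1.12), BIRC3 (-1.01), BIRC6 (-0.85) and XIAP (-0.66), which all restrain cell death, were lower, and BCL2A1 (1.13), cytochrome c (CYCS, 1.22) and BNIP3L (0.53) were higher. Lysosome and autophagy genes were listed at 13 of 85 (15.3%), 6 higher and 7 lower. CTSK and CTSL led the higher ones, and NBR1 (-0.89), ULK1 (-0.76) and the near-identical MAP1LC3B2 (-0.75) and MAP1LC3B (-0.69) fell. Actin and contractile genes were listed at 12 of 111 (10.8%), 7 higher and 5 lower. MYH15 (1.77), CAPG (1.25), FHL1 (1.09) and WASF1 (0.96) were at the top, and MYO5C (-1.42), CNN2 (-1.30), TAGLN (-0.87) and MSN (-0.74) at the bottom.

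The 3 rows annotated as long noncoding RNA genes were all higher in the authors' deposited table: DIRC3 (2.11), C11orf45 (1.24) and TRIM16L (0.96). Among rows with no gene of that name in the annotation, FLJ27365 was at -1.05, CRIPAK at -0.77 and MTRNR2L8, a nuclear copy of mitochondrial ribosomal RNA sequence, at -0.48; these were singled out after their values had been seen.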
